A study of Mus musculus with 9 samples.

Results

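Vwc2l (ENSMUSG00000045648) is 1 gene of the 32285 measured in nuclei of mouse epididymal adipose tissue (epiAT), a visceral fat depot beside the testis. It was chosen by its counts in adipocytes, far higher on a high-fat diet (HFD) than on chow, so its levels over the diet groups are given below as a description, without support from any test. The gene was found by its symbol, and its UMIs (unique molecular identifiers, each standing for 1 captured RNA molecule) were counted in all 9 matrices, which held 14435 Vwc2l UMIs over 91687 barcodes.

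Vwc2l encodes a secreted protein with von Willebrand factor type C domains, the cysteine-rich modules that chordin and related proteins use to bind bone morphogenetic proteins (BMPs). Its closest relative, Vwc2 (brorin), is a BMP antagonist known mainly from the nervous system, and Vwc2l is likewise best known from neural tissue. BMPs and activins are secreted ligands that act through paired type I and type II receptors and SMAD proteins, extracellular antagonists hold them away from those receptors, and the pathway takes part in the commitment and differentiation of fat cells.

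Nuclei of male C57BL/6J mice were profiled by droplet single-nucleus RNA sequencing in 9 diet groups, each with 1 library of nuclei pooled from 5 mice. Mice of C, CC and CCC never ate HFD and were 18, 26 and 39 weeks old. Their diet is chow in the labels, but the methods describe a low-fat control diet for C and a change to another chow for CC and CCC. Obese mice were taken at 18 weeks of age after 12 weeks on HFD (H) or at 31 weeks of age after 25 weeks on it (HH). Formerly obese mice returned to chow for their last 8 weeks, HC at 26 weeks of age following 12 weeks on HFD and HHC at 39 weeks of age following 25 weeks. The remaining groups, CCH and HCH, ate HFD for their last 4 weeks and were 30 weeks old. CCH had eaten chow until then, and HCH had been through 12 weeks of HFD and 8 weeks of chow. With no replicate of any group, no value below has an error between mice, no test between groups was made, and all intervals are 95% and cover counting error only (exact Poisson for levels, Clopper-Pearson for shares, exact conditional for ratios).

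Library totals ran from 22599619 UMIs in CCC to 66615262 in HHC. Between 2.10% and 2.47% of the barcodes of a library also occurred in another library. The sample descriptions begin with one prefix for C, H, HH, CCH and HCH and with another for CC, CCC, HC and HHC, so HH and CC differ in this label set as well as in diet and age. Adipocyte-like nuclei were gated on 12 adipocyte markers, among them Adipoq (adiponectin) and Plin1 (perilipin, which coats the lipid droplet). All 12 had UMIs in the class in every library, the median nucleus carried 10 or 11 of them, and their summed level was 13607 to 17996 CPM (UMIs of a gene relative to all UMIs of the class, scaled to 1e6) against 380.1 to 4947 CPM in the other nuclei. Macrophage markers reached 122 to 518 CPM in the adipocyte-like nuclei of the chow libraries and 1236 and 1232 CPM in those of H and HH, with all 12 having UMIs in each library. They stood at 514 and 1834 CPM in HC and HHC and at 249.7 and 998 CPM in CCH and HCH, and the part of macrophage RNA in the levels of other genes was not tested. The gate is a cut through a continuous score, and the nuclei within 20% of it numbered 4 below and 11 above in H but 503 below and 375 above in CCC.

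The gene lies on chromosome 1, from 70725715 to 70885397 on the plus strand (GRCm38, GENCODE vM21), and no other annotated gene overlaps it. Of its 4 annotated transcripts, Vwc2l-201 has 4 exons with 4655 bases out of a span of 159683, and the longest intron has 131000 bases. The first exon, the start of the second and most of the last are untranslated, and the coding sequence has 666 bases. Intronic reads were counted, which matters for nuclear RNA of a gene of which 97.1% of the span is intron. Spag16, on the same strand, ends 583 bases before Vwc2l begins. The promoter of Vwc2l, shown because its upstream bases lie in that gap between the genes, runs from 250 bases before the start to 50 bases after it (RefSeq, GRCm38.p6, chr1:70725465-70725764, plus strand) and is printed with both copies of the E-box CAGCTG in capitals.

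Vwc2l promoter: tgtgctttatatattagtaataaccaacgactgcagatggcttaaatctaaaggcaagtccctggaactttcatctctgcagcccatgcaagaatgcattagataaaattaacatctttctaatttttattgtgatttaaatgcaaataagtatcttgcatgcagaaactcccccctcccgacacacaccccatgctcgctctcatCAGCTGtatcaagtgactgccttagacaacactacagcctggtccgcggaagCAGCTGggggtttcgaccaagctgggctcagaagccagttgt

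The copies begin 44 bases before the start and at base 9 of the transcript. CAGCTG, read on both strands, occurred in 16.3% of 32851 promoter windows of that length, and TATAAA, found once 245 bases before the start on the strand opposite to the gene, in 13.6%. No match was found on either strand for CCAAT (in 37.4% of all windows), the GC box GGGCGG (35.7%), the BMP response motif GGCGCC (11.9%), CACGTG (7.15%), the AP-1 motif TGACTCA (5.20%), the SMAD motif GTCTAGAC (0.213%), TTGCGCAA (0.183%) or the motif DR1 of nuclear receptors (0.0396%). The matches found do not overlap each other. The window is 44.3% G and C, against a median of 52.7% over all windows.

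Among adipocyte-like nuclei of the chow libraries, C had a Vwc2l level of 5.29 CPM (4.05 to 6.80), CC one of 2.56 CPM (1.23 to 4.70) and CCC one of 20.6 CPM (16.3 to 25.7). These levels rest on 61, 10 and 78 UMIs in 2315, 818 and 1297 nuclei, and CCC, the oldest chow group, was the highest. On HFD, H had 618 CPM (564 to 675) and HH 735 CPM (696 to 776), from 486 UMIs in 180 nuclei and 1324 UMIs in 412 nuclei. Both obese libraries were far above every chow library.

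After weight loss, HC had 6.13 CPM (3.79 to 9.36) and HHC 75.0 CPM (61.6 to 90.4), from 21 UMIs in 826 nuclei and 109 UMIs in 330 nuclei. HC lay among the chow libraries and HHC above all of them, but below H and HH. With 4 weeks of HFD the level was 31.6 CPM (26.0 to 38.1) in CCH, from 110 UMIs in 692 nuclei, and 165 CPM (145 to 187) in HCH, from 248 UMIs in 333 nuclei. Both were above every chow library, and HCH was the highest library after H and HH.

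**Figure D1:**
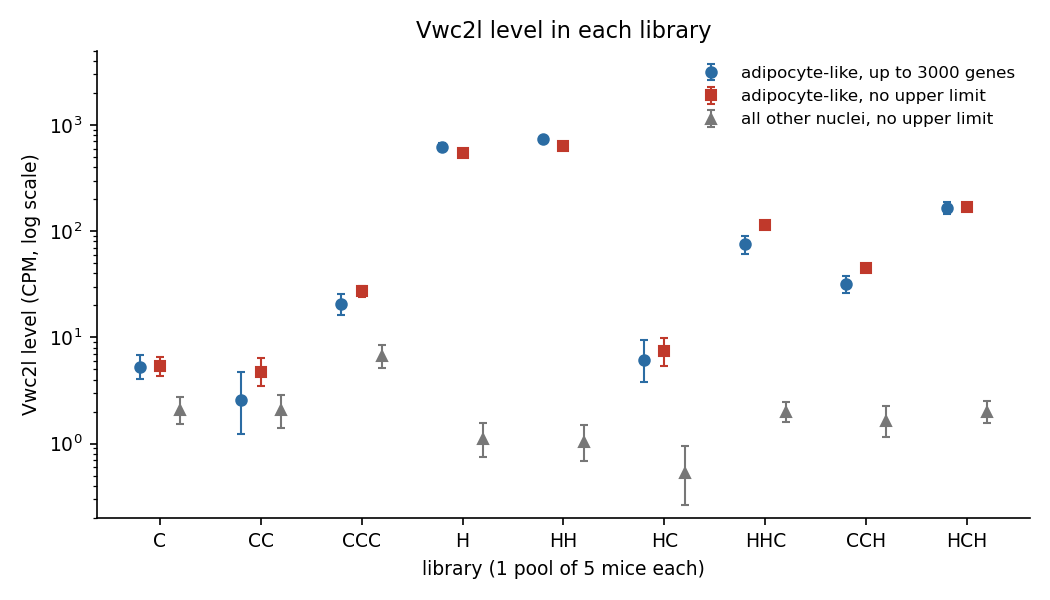
Vwc2l level in CPM on a log axis in each of the 9 libraries, in adipocyte-like nuclei with up to 3000 detected genes (circles), in adipocyte-like nuclei with no upper limit (squares) and in all other nuclei (triangles), with exact Poisson 95% intervals. H and HH stand at 548 to 735 CPM, HC stands with C and CC, and the other nuclei stay at or below 6.68 CPM in every library.

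From highest to lowest the order was HH, H, HCH, HHC, CCH, CCC, HC, C and CC. The interval of the ratio between neighbours in this order included no difference for HC over C alone (log2 ratio 0.21, −0.58 to 0.95), and C over CC had 1.05 (0.07 to 2.18). HH was above H by a log2 ratio of 0.25 (0.10 to 0.40). These intervals take UMIs as independent, but the variance of Vwc2l UMIs over nuclei was 16.3 times the mean in H and 15.0 times in HH. They leave out this spread between nuclei and are too narrow for it, so HH and H cannot be called separated. With no upper limit on detected genes the order was the same, and C over CC (0.17, −0.35 to 0.70) joined HC over C (0.47, −0.07 to 0.99) among neighbours that counting error could not separate.

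Against its control, Vwc2l was 117-fold higher in H than in C (89.3 to 155, log2 ratio 6.87). It was 288-fold higher in HH than in CC (156 to 601, log2 ratio 8.17), where CC gave only 10 UMIs. Against C, which shares the label set of HH, the ratio was 139-fold (107 to 183), and with no upper limit on detected genes HH over CC had a log2 ratio of 7.05 (6.64 to 7.51). Of 12577 genes with at least 20 UMIs over HH and CC, none had a higher ratio than Vwc2l, while it ranked 18 of 13768 in HH against C and 14 of 13319 in H against C. For background, 27.1% of the genes compared were at least 2-fold higher in H and 25.5% in HH, and the median gene had log2 ratios of 0.32 and 0.19. The split of all genes between 3610 higher and 1023 lower in H depended on the scaling, with 2364 and 2194 after TMM normalisation, under which the Vwc2l ratio was 6.41.

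For weight loss, HC was 2.40-fold above CC (1.08 to 5.70, log2 ratio 1.26). This ratio rests on 21 and 10 UMIs and was 0.64 (0.01 to 1.27) on the log2 scale with no upper limit on detected genes. It turned to −0.09 (−2.21 to 2.03) in 1 random thinning of each nucleus to 1500 UMIs. A second random thinning of the same nuclei had 4.095 CPM in HC and 0.869 CPM in CC, from 5 UMIs and 1 UMI. Thinning thus left too few UMIs to give a direction. HHC was 3.64-fold above CCC (2.70 to 4.93, log2 ratio 1.86), and 2.09 (1.88 to 2.30) on the log2 scale with no upper limit. At least 2-fold higher levels were found for 5.17% of genes in HC and 5.39% in HHC. HC over H had a log2 ratio of −6.66 (−7.36 to −6.03), across the label sets. HHC was 12.2-fold above HC (7.62 to 20.6), and CCC was 8.06-fold above CC (4.16 to 17.5), so the libraries at 39 weeks of age were above those at 26 weeks with and without a past on HFD. Longer HFD and age cannot be told apart in HHC against HC.

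For the second exposure, HCH was 5.21-fold above CCH (4.15 to 6.59, log2 ratio 2.38), both at the same age, in the same label set and after the same 4 weeks of HFD. With no upper limit on detected genes the log2 ratio was 1.88 (1.78 to 1.98). At least 2-fold higher levels in HCH were found for 13.6% of genes. CCH itself was 5.97-fold above C (4.33 to 8.30), where 7.46% of genes were at least 2-fold higher. CCH was 30 and C 18 weeks old, so age and HFD cannot be told apart in this ratio. Both older chow libraries belong to the other label set than C. CCC, on chow to 39 weeks, was 3.89-fold above C (2.75 to 5.53). CC, nearer to CCH in age, was at 0.48-fold of C (0.22 to 0.95), from 10 UMIs in CC. With no upper limit on detected genes CC was at 0.89-fold of C (0.61 to 1.27). HCH over H had a log2 ratio of −1.91 (−2.13 to −1.68).

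The share of adipocyte-like nuclei with a Vwc2l UMI had nearly the order of the levels, except that HC was below C, with overlapping intervals. C had 2.25% (1.68 to 2.94), CC 1.10% (0.504 to 2.08) and CCC 4.78% (3.68 to 6.09), at median depths of 4894, 4844 and 2480 UMIs per nucleus. H had 38.9% (31.7 to 46.4) and HH 47.3% (42.4 to 52.3), at 4656 and 4560.5 UMIs. About as deep, the nuclei of the obese libraries thus carried Vwc2l many times more often than those of C and CC.

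Among the weight-loss libraries HC had 1.94% (1.11 to 3.13) and HHC 10.3% (7.24 to 14.1), and after 4 weeks of HFD CCH had 9.68% (7.58 to 12.1) and HCH 21.3% (17.0 to 26.1), at median depths of 3874, 4809, 5302.5 and 4766 UMIs. In macrophage-like nuclei, which serve as the background of free RNA, the share was between 0.147% in H and 0.694% in CCC, at median depths of 1981 to 3269 UMIs. The intervals of the adipocyte-like and macrophage-like shares did not overlap in any library but CC. In CC the macrophage-like share was 0.288% (0.0073 to 1.60), at 2921 UMIs, so the 1.10% of its deeper adipocyte-like nuclei could not be told from background. Thinned to 1500 UMIs per nucleus, 25.3% of nuclei in H (10 of its nuclei left out as shallower) and 33.6% in HH (19 left out) kept a Vwc2l UMI, against 0.816% in C (110 left out) and 0.130% in CC (51 left out).

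Vwc2l was not spread evenly over the adipocyte-like nuclei of the obese libraries. With no upper limit on detected genes, 52.9% of 578 nuclei in H and 59.3% of 926 in HH had a UMI. If each nucleus had held the level of the whole class, 95.5% and 95.3% would have had one at these depths. At the other end, 16.4% of the nuclei in H and 16.2% in HH had 10 or more UMIs, up to 74 and 83 in a single nucleus. The richest 10% of nuclei held 63.7% of the Vwc2l UMIs in H and 57.4% in HH, but only 11.3% and 12.1% of all UMIs.

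HHC, CCH and HCH showed the same unevenness at lower levels. A UMI was found in 21.3% of the nuclei of HHC, 20.4% of those of CCH and 38.7% of those of HCH, where an equal level would have given 58.7%, 39.5% and 78.6%. The richest nucleus had 46 UMIs for HHC, 78 for CCH and 115 for HCH, the most in any nucleus of the series. Nuclei with 10 or more UMIs made up 3.03% in HHC, 1.01% in CCH and 5.42% in HCH, against 16.4% in H and 16.2% in HH. The libraries thus differed in the share of adipocyte-like nuclei with a UMI and in the share with 10 or more. How much the carriers held at equal depth was not tested. In C, CC and HC the observed share (2.79%, 3.03% and 3.35%) was near that of an equal level (3.39%, 3.57% and 4.17%), which at such low counts could hardly differ.

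**Figure D2:**
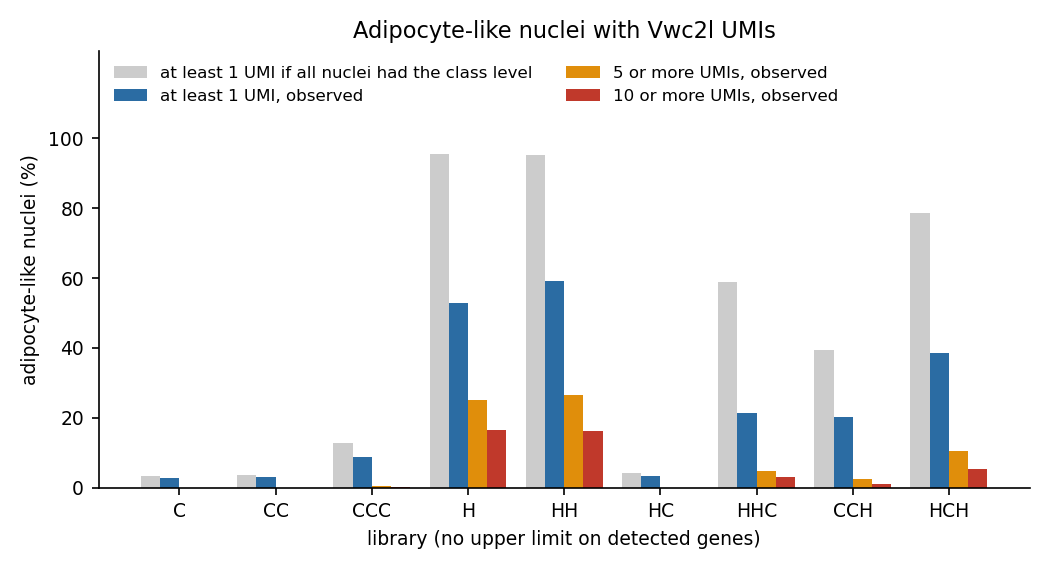
Percentage of adipocyte-like nuclei (no upper limit on detected genes) in each library with at least 1, 5 or 10 Vwc2l UMIs, beside the percentage that would hold at least 1 if every nucleus had the level of its class (grey). In H, 52.9% of nuclei had a UMI where 95.5% would have at an equal level, and 16.4% had 10 or more.

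In most libraries the larger part of the Vwc2l UMIs lay in barcodes above the study's limit of 3000 detected genes, from 48.0% in C to 91.2% in CCH. Adipocyte-like barcodes above the limit made up 77.6% of the class in HCH, 73.0% in CCH, 69.0% in H, 62.2% in HHC and 56.3% in HH, and 22.5% (HC) to 35.9% (CC) in the other libraries. From 1500 genes up the levels below and above the limit were within a few-fold of each other in H and HH. In H it was 683 CPM (609 to 764) in nuclei with 2500 to 3000 genes, 711 CPM (671 to 752) with 3000 to 4000 and 255 CPM (227 to 284) above 5000. In HH the same bins had 821, 659 and 410.0 CPM. Below 1500 genes, where nuclei were few, H had 246 CPM (106 to 485) and HH 94.4 CPM (37.9 to 194). The obese libraries thus had their lower levels at both ends of the range of detected genes.

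CCH had 34.9 CPM (27.1 to 44.1) at 2500 to 3000 genes and 58.0 CPM (51.3 to 65.4) above 5000. HHC had no steady order over the bins, with 239 CPM (164 to 338) at 1500 to 2000 genes, where 11.1% of 45 nuclei held all 32 UMIs, 28.1 CPM (14.5 to 49.1) at 2000 to 2500, 74.2 CPM (56.2 to 96.2) at 2500 to 3000 and 178 CPM (157 to 200) above 5000. HCH had 207 CPM (178 to 238) at 2500 to 3000 genes, 220 CPM (209 to 232) at 4000 to 5000 and 114 CPM (105 to 123) above 5000. In every bin from 1500 genes up, H and HH were above the other libraries. The part that doublets play in nuclei with many genes was not tested, beyond the removal of those that Scrublet called.

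**Figure D3:**
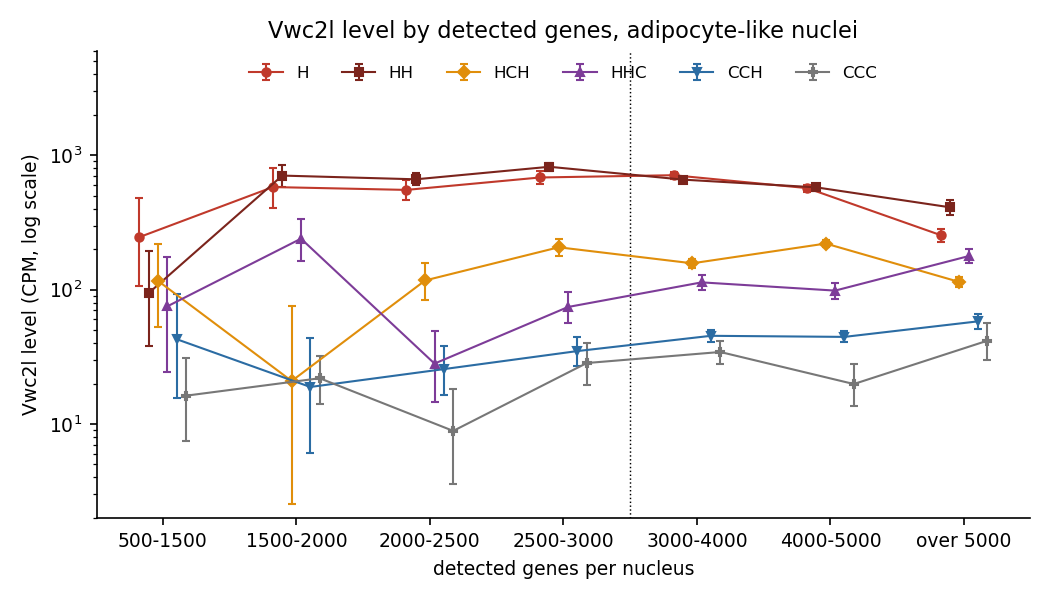
Vwc2l level in CPM on a log axis in adipocyte-like nuclei binned by detected genes, for the 6 libraries with the highest levels, with exact Poisson 95% intervals; the dotted line marks the limit of 3000 genes. H and HH stay between 552 and 821 CPM from 2000 to 5000 genes and are lower above 5000, while HHC has its highest point, 239 CPM, at 1500 to 2000 genes, where few nuclei carried the UMIs.

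In H and HH, Vwc2l was close to 0 outside the adipocyte-like class. Adipocyte-like barcodes held 98.8% of all Vwc2l UMIs of H and 98.8% of those of HH, although they held 15.7% and 20.5% of all UMIs. The share was 96.7% in HCH, 92.9% in CCH and 86.8% in HHC, but 79.4% in HC, 77.9% in CCC, 68.7% in C and 48.5% in CC. Unassigned nuclei of C had 6.23 CPM with no upper limit, where 1 nucleus held 8 of their 26 UMIs, and 2.96 CPM up to 3000 genes, against 5.34 and 5.29 CPM in its adipocyte-like nuclei. In H, the 6457 macrophage-like nuclei together gave 23 Vwc2l UMIs, a level of 1.21 CPM (0.76 to 1.81), and the 2164 progenitor-like nuclei 7 UMIs, 1.04 CPM (0.42 to 2.14). In HH, macrophage-like nuclei were at 1.09 CPM (0.64 to 1.75) and progenitor-like nuclei at 0.91 CPM (0.37 to 1.88). Macrophage-like nuclei of C had 0.78 CPM (0.16 to 2.27), so a difference between obese and chow levels in that class was not detectable at this depth. Of 71212 nuclei outside the adipocyte-like class in all libraries, 4 had 5 or more Vwc2l UMIs, and they carried 9 (H), 8 (HHC), 5 (CCH) and 2 (C) of the 12 adipocyte markers.

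Set against the UMIs of the adipocyte markers, adipocyte-like nuclei had 33.4 Vwc2l UMIs per 1000 marker UMIs in H (32.2 to 34.6), and macrophage-like nuclei 3.58 (2.27 to 5.37). In HH the values were 36.4 (35.3 to 37.4) and 2.17 (1.26 to 3.48). In both libraries the ratio was thus lower in macrophage-like than in adipocyte-like nuclei. In C, macrophage-like nuclei had 0.53 per 1000 (0.11 to 1.56), from 3 UMIs, and adipocyte-like nuclei 0.37 (0.30 to 0.44). In CCC they had 1.18 (0.24 to 3.45), also from 3 UMIs, and 1.74 (1.53 to 1.97), so the intervals overlapped in both libraries. All nuclei outside the adipocyte-like class together had 1.20 per 1000 (0.885 to 1.58) in C and 2.01 (1.56 to 2.55) in CCC. Unassigned nuclei gave 26 of those 49 UMIs in C.

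Vwc2, the paralog, had another pattern of cell classes. Mesothelial-like nuclei, from the lining of the depot, held 141 CPM in CC to 384 CPM in HHC, and progenitor-like nuclei 43.5 CPM in H to 100.3 CPM in HHC. In adipocyte-like nuclei Vwc2 had 2.0 CPM (1.27 to 2.99) in C, 5.37 CPM (3.32 to 8.20) in CC, 6.34 CPM (4.06 to 9.43) in CCC, 2.22 CPM (0.60 to 5.68) in HH and no UMI in H, where the interval reaches up to 4.69 CPM. Vwc2 was thus highest in other cell classes than Vwc2l.

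The BMP and activin pathway was looked at as 77 genes in lists by role, of which 50 had at least 20 UMIs over H and C in adipocyte-like nuclei and 48 over HH and CC. In H against C, 8 were at least 2-fold higher and 13 at least 2-fold lower, where 27.1% of all genes were higher and 7.68% lower. In HH against CC, 4 were higher and 15 lower, where 25.5% of all genes were higher and 11.0% lower. The median gene of the pathway had log2 ratios of −0.31 and −0.52, against 0.32 and 0.19 over all genes compared. The highest pathway ratios were 4.24 for Inhbb in H and 3.47 for Id3 in HH, below the 6.87 and 8.17 of Vwc2l. With C in place of CC, which keeps HH and its control in one label set, 12 of 51 were higher and 8 lower in HH, where 28.6% of all genes were higher and 8.29% lower, and the median log2 ratio was −0.26 for the pathway and 0.30 for all genes.

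Among the ligands, Bmp3, an atypical BMP that opposes the others, was at 4.25 CPM in C (49 UMIs) and 69.9 CPM in H (55 UMIs), a log2 ratio of 4.04 (3.46 to 4.63). It was at 8.69 CPM in CC and 46.6 CPM in HH, a log2 ratio of 2.42 (1.83 to 3.04). After weight loss Bmp3 was 23.9 CPM in HC and 58.5 CPM in HHC. For Inhbb, which encodes the activin B subunit, the log2 ratio was 4.24 (3.27 to 5.25) with H, from 22 and 17 UMIs, and 1.65 (0.99 to 2.32) with HH. Both ligands were also at least 2-fold higher in HCH than in CCH (1.36 and 1.27 on the log2 scale). Bmp6 was too (1.28, 0.63 to 1.93), although it was lower in H than in C and in HH than in CC.

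Bmp6 and Gdf10 were lower in H than in C and in HH than in CC. Bmp6, which in fat comes mainly from cells other than adipocytes, was at 12.8 CPM in C and 1.27 CPM in H, and at 29.4 CPM in CC and 5.00 CPM in HH. In the other nuclei of C and CC it was at 226 and 179 CPM, so its counts in the adipocyte-like class are a small fraction of those around it. For Gdf10 the log2 ratio was −1.74 (−7.07 to 0.80) with H, where 1 UMI was counted, and −1.73 (−3.44 to −0.38) with HH. Tgfb3, a TGF-beta ligand, had −1.20 (−3.10 to 0.19) and −1.77 (−2.73 to −0.92). Of these lower ligands, Bmp6 alone had intervals below 0 in both comparisons. With C in place of CC, HH had −1.35 (−2.51 to −0.39) for Bmp6 but −0.62 (−2.30 to 0.70) for Gdf10 and −0.70 (−1.65 to 0.12) for Tgfb3, under 2-fold for both.

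For Fstl1, a secreted follistatin-like glycoprotein, H over C gave a log2 ratio of 2.93 (2.60 to 3.25) and HH over CC one of 3.12 (2.81 to 3.44). The other nuclei of H held more Fstl1 (299 CPM) than its adipocyte-like nuclei (153 CPM). Id3, a transcriptional regulator that BMP signals induce in many cells, was at 45.5 CPM in C and 397 CPM in H, and at 44.5 CPM in CC and 494 CPM in HH, log2 ratios of 3.12 (2.92 to 3.33) and 3.47 (3.24 to 3.72). Of 3 BMP target genes with enough UMIs, Id3 alone was at least 2-fold higher in these comparisons. The median of the 3 was 0.43 in H and −0.54 in HH, against 0.32 and 0.19 over all genes compared. Adipocyte-like nuclei held more Id3 than the other nuclei of the same library, 43.6 CPM in H and 65.3 CPM in HH. In HC, Id3 was 21.6 CPM, lower than in CC by a log2 ratio of −1.04, and in HHC 111 CPM against 141 CPM in CCC, a log2 ratio of −0.35 (−0.61 to −0.09).

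Of 15 receptors with enough UMIs, 4 were at least 2-fold lower and none higher in H against C, and as many in HH against CC, where 7.68% and 11.0% of all genes were lower and 27.1% and 25.5% higher. Endothelial markers were lower in the same adipocyte-like nuclei, 6 of 8 in H with a median log2 ratio of −1.48 and 8 of 8 in HH with −2.78. So were mesothelial markers, 4 of 8 in H (−1.39) and 2 of 6 in HH (−0.77). Of the epithelial markers, 4 of 5 were lower in H (−1.62) and 2 of 2 in HH (−2.38). Against C in place of CC, HH had 3 of 8 endothelial (−0.84), 2 of 8 mesothelial (−0.62, with 1 higher) and 6 of 6 epithelial markers (−1.40) lower. The part of these cells in the lower receptors and in Bmp6 was not tested. For Bmpr1b, a type I BMP receptor, the log2 ratio was −1.41 (−3.05 to −0.17) with H and −4.49 (−6.78 to −2.91) with HH, and for Eng, the co-receptor endoglin of endothelial cells, it was −1.68 (−7.02 to 0.87) and −2.09 (−3.36 to −1.04). Both had several times more CPM in the other nuclei of the same libraries (264 CPM of Bmpr1b in C, 46.8 CPM of Eng in H). Smad1, which carries the BMP signal to the nucleus, had −1.16 (−1.86 to −0.54) and −1.09 (−1.53 to −0.68). Against C in place of CC, HH had −3.35 for Bmpr1b and −0.89 for Smad1 but 0.12 for Eng. In HC against CC, 3 of 49 pathway genes were at least 2-fold higher and 5 lower, and in HHC against CCC 4 of 49 were higher and 10 lower, where 5.17% and 5.39% of all genes were higher and 7.64% and 12.6% lower. Markers of other cell types were lower in the same nuclei of HHC too, with 6 of 6 mesothelial (median log2 ratio −1.76), 6 of 7 epithelial (−3.26), 3 of 3 lymphatic endothelial (−2.26) and 4 of 8 endothelial markers (−0.88) at least 2-fold lower than in CCC, and their part was not tested. In HCH against CCH, 8 of 45 were higher and 3 lower, where 13.6% of all genes were higher and 2.74% lower. In the same nuclei 9 of 12 macrophage markers were at least 2-fold higher (median log2 ratio 3.14) and 2 lower. So were 4 of 4 mast cell (1.66), 3 of 8 endothelial (0.89) and 3 of 10 progenitor markers (0.55) higher. None of the mesothelial, epithelial or smooth muscle markers was, and the part of these cells was not tested.

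**Figure D4:**
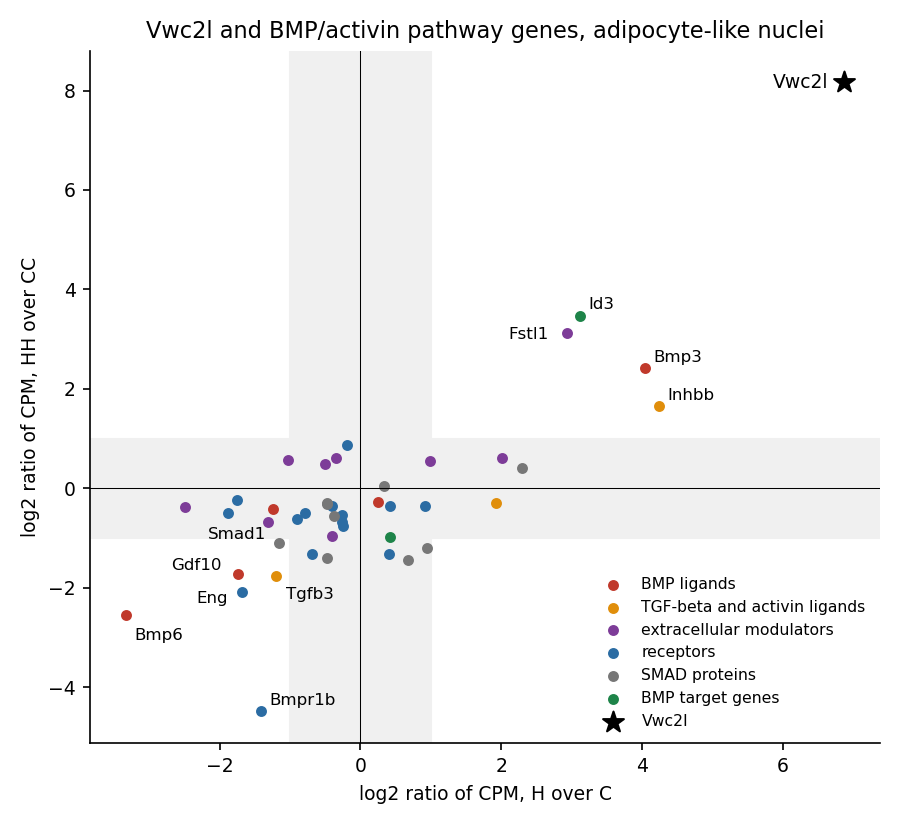
Log2 ratio of CPM in adipocyte-like nuclei, H over C on the horizontal and HH over CC on the vertical axis, for Vwc2l (star) and the BMP and activin pathway genes with at least 20 UMIs in both comparisons and at least 1 UMI in each library compared, coloured by role, with grey bands for under 2-fold. Vwc2l stands at 6.87 and 8.17, Id3, Fstl1, Bmp3 and Inhbb are the named pathway genes higher in both, and Bmp6, Bmpr1b, Gdf10, Tgfb3, Eng and Smad1 are lower in both.

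Adipocyte state was read from 2 further lists. Of 4 genes reported to rise in obese fat with enough UMIs, all 4 were at least 2-fold higher in H against C and 1 in HH against CC, where 27.1% and 25.5% of all genes were. With C in place of CC all 4 were higher in HH as well. The gene higher in each case was Mest, a marker of fat expansion, with log2 ratios of 3.09 (2.74 to 3.44) for H over C, 1.69 (1.40 to 1.995) for HH over CC and 3.0 (2.72 to 3.29) for HH over C. Of 12 metabolic genes, 2 were higher and 4 lower both in H against C and in HH against CC, where 7.68% and 11.0% of all genes were lower. Acaca and Acacb, the acetyl-CoA carboxylases of fatty acid metabolism, had −2.38 and −2.96 in H and −1.02 and −1.68 in HH. Cyp2e1, a cytochrome P450 of adipocytes, had −4.56 and −2.69. Cebpa, a transcription factor of adipocyte differentiation, had 1.79 and 2.18.

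Over the 9 libraries, 9364 genes with at least 20 CPM in 1 library and 100 UMIs in all were ranked by Pearson correlation of log2(CPM + 1) with Vwc2l in adipocyte-like nuclei. This is a description over 9 points that differ together in depth, label set, age and diet, and 762 genes reached 0.9. The highest were Irs3 (r = 0.994), an insulin receptor substrate of rodent fat, Gm15614 (0.994), Slc24a5 (0.993), a sodium, potassium and calcium exchanger, Rbm4b (0.991), an RNA-binding protein, and Ceacam2 (0.990), a cell adhesion molecule. Gm17106, Sspnos, Gm47371, Gm5089 and Spsb2 followed, down to 0.988. With 10 in place of 1 added to the CPM, 5 of these 10 remained among the 10 highest.

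Irs3 was at 11.6, 8.95 and 22.7 CPM in C, CC and CCC, at 73.7 and 105 CPM in H and HH, at 14.3 and 36.5 CPM in HC and HHC, and at 23.8 and 51.8 CPM in CCH and HCH. The libraries stood in the same order as for Vwc2l, over a far narrower range. Irs3 too was low outside adipocyte-like nuclei, with 0.87 and 0.70 CPM in macrophage-like nuclei of H and HH. Slc24a5 was at 57.2 and 80.5 CPM in H and HH against 1.13 CPM in C, but macrophage-like nuclei held 35.3 and 37.6 CPM of it in H and HH.

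Of the neighbouring protein-coding genes, Spag16, which encodes a protein of the sperm flagellum and ends just upstream of Vwc2l on the same strand, was at 8.68 CPM in C, 12.8 CPM in CC and 32.2 CPM in CCC, and at 68.7 CPM in H and 49.4 CPM in HH. Its log2 ratios were 2.98 (2.48 to 3.48) for H over C and 1.95 (1.43 to 2.48) for HH over CC, in the direction of Vwc2l but smaller. After weight loss Spag16 was at 0.58 CPM in HC, from 2 UMIs, and 6.19 CPM in HHC, lower than in CC and CCC by log2 ratios of −4.45 (−7.54 to −2.52) and −2.38 (−3.54 to −1.41), where Vwc2l was higher. CCH had 5.46 CPM and HCH 9.97 CPM of Spag16, from 19 and 15 UMIs, a log2 ratio of 0.87 (−0.21 to 1.92) for HCH over CCH. With no upper limit on detected genes they had 5.01 and 16.6 CPM. That log2 ratio was 1.73 (1.43 to 2.04), near the 1.88 of Vwc2l. In H and HH, Spag16 levels were several times below those of Vwc2l, while in C, CC and CCC they were above them. Whether reads run from one gene into the other was not tested.

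Erbb4, a neuregulin receptor and the third protein-coding gene upstream, had a log2 ratio of −4.08 (−5.70 to −2.85) for H over C and −2.07 (−2.62 to −1.55) for HH over CC. It did not follow the diet at the time, with its highest level in CCH (201 CPM) and 9.63 CPM in HHC against 80.8 CPM in CCC. Ikzf2, a zinc finger transcription factor between Erbb4 and Spag16, had −1.25 (−1.55 to −0.96) and −0.43 (−0.68 to −0.18). Downstream, Bard1, the partner of Brca1, had 1.38 to 5.98 CPM in all libraries, and Atic, an enzyme of purine synthesis, 17.1 to 30.5 CPM, with log2 ratios of 0.32 (−0.41 to 0.98) and 0.30 (−0.31 to 0.90). Abca12, a lipid transporter, had no UMI in these nuclei in any library. The genes around Vwc2l therefore did not differ together, although Spag16 went with Vwc2l in H and HH but not in HC and HHC. For HCH over CCH the interval of Spag16 lay above no difference only with no upper limit on detected genes.

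**Figure D5:**
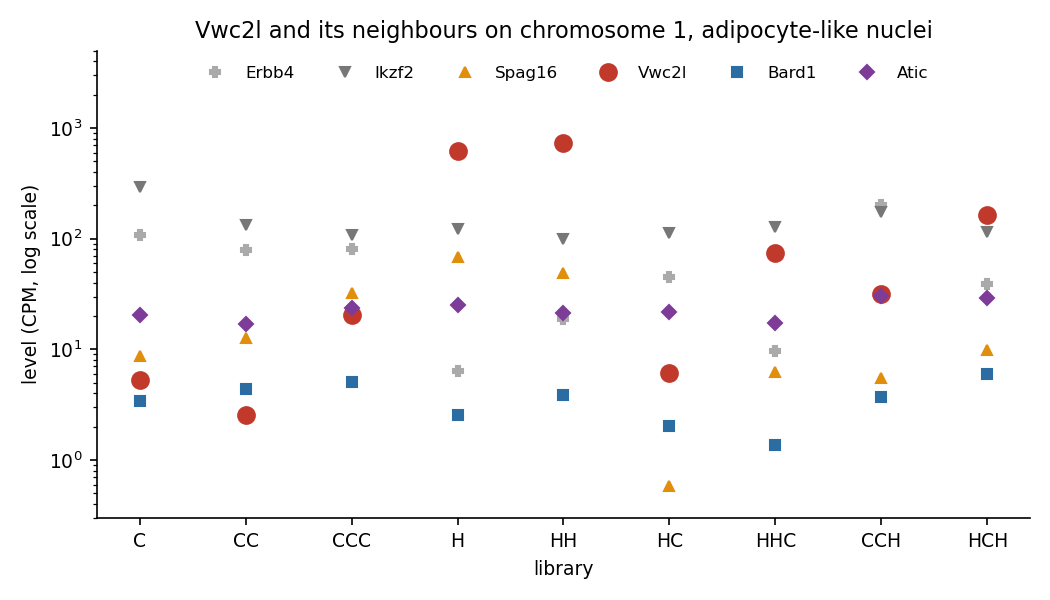
Level in CPM on a log axis of Vwc2l and its neighbouring protein-coding genes in adipocyte-like nuclei of each library, without Abca12, which had no UMI in them. Spag16 is higher in H and HH (68.7 and 49.4 CPM) than in C and CC, is at 0.58 CPM in HC, and has no library near the 735 CPM of Vwc2l in HH.

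Adipocyte-like nuclei with and without a Vwc2l UMI were compared within H, HH, HHC, CCH and HCH, each nucleus thinned to 4000 UMIs (62 to 174 shallower nuclei left out per library). Nuclei with a UMI numbered 222 of 516 in H, 409 of 780 in HH, 95 of 677 in HHC, 226 of 2110 in CCH and 341 of 1282 in HCH. They had slightly more detected genes in each library (medians of 3716 against 3686.5 in H, 3349 against 3310 in HH and 3853 against 3417 in HHC) and lower doublet scores (0.0512 against 0.0739 in H). These nuclei share their mice and library, so the direction over the 5 libraries is read, and intervals cover counting error only.

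Of 41 listed genes with enough UMIs in all 5 libraries, 5 were higher and 5 lower in the nuclei with Vwc2l in every library, where 4.15% and 4.74% of all 9237 genes compared were. Among those higher in all 5 were Cyp2e1 (log2 ratios of 0.11 to 0.83), Adrb3, the beta-3 adrenergic receptor (0.05 to 0.56), Slc7a10, an amino acid transporter (0.08 to 0.23) and Npr3, the natriuretic peptide clearance receptor (0.01 to 0.30). Lower in all 5 were Ghr, the growth hormone receptor (−0.37 to −0.05), Scd1, a fatty acid desaturase (−0.79 to −0.03), Tshr, the thyrotropin receptor (−0.26 to −0.03), and the progenitor markers Ebf2 (−0.77 to −0.07) and Abca8a (−0.57 to −0.07).

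None of 6 macrophage markers was on one side in all 5 libraries. Cyp2e1, lower in H and HH as a whole, thus had a log2 ratio above 0 within each library in the nuclei that carried Vwc2l. In H it was 0.13 (−0.25 to 0.51), which includes no difference. Other genes on one side in all 5 also had such intervals, as Npr3 in CCH (0.01, −0.04 to 0.06) and Tshr in HCH (−0.03, −0.09 to 0.04). Mest, higher in H and HH as a whole, had log2 ratios of −0.62 to 0.38 between these nuclei.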

How the data were processed

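The authors sequenced 10x 3′ libraries of nuclei, per the labels, and deposited raw UMI counts per gene and barcode, made with Cell Ranger 6.1.2 with intronic reads counted. Their processing notes also name Seurat 4.1.0. No values of theirs other than these deposited counts were used.

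Barcodes with 500 to 3000 detected genes and up to 40000 UMIs were kept, as in the study, and every level was repeated with no upper limit on genes. Doublets were called with Scrublet in scanpy 1.11.5, at its automatic threshold or, where that marked under 0.5%, at 0.8% per 1000 barcodes. A nucleus was adipocyte-like with at least 5 of 12 adipocyte markers and at least 80 marker UMIs per 10000, and at least 2 times its library's median. Other classes were assigned from at least 3 of their markers. This gate was set after the data had been seen, and it was checked against Leiden clusters. Counts were summed per library and class and divided by the class total, without mitochondrial genes and Malat1 (786586 UMIs in H to 11524527 in C), giving CPM. Vwc2l, the gene lists and the markers were chosen with earlier results of these data known.

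Genes with at least 20 UMIs over a pair of libraries were compared, and called at 2-fold. A count of 0 was set to 3 counts for these calls. In H this is 3.81 CPM, so a gene with no UMI in H and 20 in C was called higher in H. Named genes were Vwc2l, its paralog Vwc2, list genes called in both H against C and HH against CC, the 10 genes with the highest correlation, the 3 protein-coding neighbours on each side and, for nuclei with and without a UMI, genes of the adipocyte, macrophage, progenitor and adipocyte state lists. Some results on listed genes are not reported here, and the counts over lists include all their members. With 1 library a group there was no test. Calculations used Python 3.11.15, numpy 2.4.6 and scipy 1.17.1. Simulated counts were used to test the ratio interval, the 2-fold call and the thinning, but not the rule for counts of 0. Alternatives were scaling by TMM (edgeR 4.0.16) and by DESeq2 1.42.0 size factors in R 4.3.3, other count filters, clusters in place of the gate, a stricter gate, barcodes found in 1 library only, no doublet removal, thinning, subtraction of the level in other nuclei, C as the control of HH and, added after seeing the data, only nuclei above 3000 genes.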

Additional observations from a re-analysis of the deposited data

Results flagged for a closer look

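A large share of the Vwc2l UMIs lay in barcodes with more than 3000 detected genes, which the levels above leave out by the study's limit. These data outside the main measurement held 48.0% of the Vwc2l UMIs in C, 74.2% in CC and 60.2% in CCC. They held 83.4% in H and 71.6% in HH, while the weight-loss libraries had 50.0% (HC) and 85.3% (HHC). The highest values were 91.2% for CCH and 90.2% for HCH. The barcodes above the limit were 6.92% to 24.1% of all barcodes of a library. Why adipocyte-like barcodes of some libraries lay above the limit more often than those of others was not tested.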

How the results depend on the processing

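Of 51 alternative values of the 5 Vwc2l ratios, 40 stayed within the counting interval of the reported value, 10 lay outside it and 1 was reversed. The log2 ratio of H over C was 6.41 with TMM and 6.47 with DESeq2 size factors. That of HH over CC was 7.05 with no upper limit on detected genes, 9.47 with the level of other nuclei subtracted, 7.12 with C in place of CC and 6.59 in nuclei above 3000 genes only. HC over CC turned to −0.0858 in 1 random thinning to 1500 UMIs per nucleus, which is the reversed value. A second random thinning, which also gave the thinned shares below, had 4.095 CPM in HC and 0.869 CPM in CC. HHC over CCC was 2.33 with the level of other nuclei subtracted and 2.58 in the first random thinning. In the second, HHC had 85.0 CPM and CCC 22.7 CPM, a smaller ratio, so the thinned values varied with the draw. HCH over CCH was 1.88 with no upper limit and 1.82 above 3000 genes only. The cause of these shifts was not tested. Over all alternatives the ratios ran from 6.41 to 7.23 for H over C, 6.59 to 9.47 for HH over CC, −0.09 to 2.40 for HC over CC, 1.44 to 2.58 for HHC over CCC and 1.82 to 2.54 for HCH over CCH.

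Thinned to 1500 UMIs, the shares of nuclei with a Vwc2l UMI were 25.3% and 33.6% in H and HH, 0.816%, 0.130% and 3.21% in C, CC and CCC, 0.614% and 5.70% in HC and HHC, and 3.28% and 11.1% in CCH and HCH, all lower by construction. The genes at least 2-fold higher in H numbered 3610, but 6502 with at least 5 UMIs, 11104 with no filter and 2364 with TMM, and those lower 1023, but 2194 with TMM. As 0 was set to 3 counts and H had the smaller class total, genes with no UMI in H and few in C were called higher in H. The 6502 and 11104 can include such genes, as can the 3610, so they are not counts of genes seen to rise. Counts with no filter in the other comparisons can also hold genes with no UMI in the group called higher. Those higher in HH numbered 3210, but 7331 with no filter. With at least 5 UMIs and with no filter, the genes higher in HC numbered 1295 and 2702 in place of 641, those lower in HC 1814 and 2849 in place of 948, those higher in HHC 1297 and 4404 in place of 691, those higher in HCH 2742 and 5864 in place of 1595, and those lower in HCH 705 and 705 in place of 321 (496 with TMM). Of the 10 genes most like Vwc2l, 5 were among the 10 highest with log2(CPM + 10).

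No paired analysis was possible because each diet group had 1 library. CC gave 10 Vwc2l UMIs in adipocyte-like nuclei, which limits HH over CC and HC over CC most.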
